A study of Mus musculus with 7 samples.

Results

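The genes described here sense DNA damage, halt the cell cycle and repair the lesion. They were taken by name from a list of 31 such genes, and 28 of them had at least 1 probe set on the array, out of 6326 genes measured above the floor described below. The 28 genes were read by 35 probe sets. No probe set carried the name Atr, Trp53 or Fancd2.

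A break in both DNA strands is recognised by the complex of Rad50, Mre11a and Nbn, which activates the kinase Atm. Atm marks the histone H2ax around the break, brings in the scaffolds Trp53bp1 and Brca1, and passes the signal to Chek2, while stalled replication is read through the clamp of Rad9a and Hus1, its loader Rad17 and the kinase Chek1. Wee1 then keeps the mitotic kinase inactive until repair is done. In the uterus, steroid hormones drive cells into division, and many repair and checkpoint genes are transcribed most in dividing cells.

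Each of 7 microarrays held RNA pooled from uteri of C57BL/6 females labelled as aged 10 to 11 weeks (the growth protocol adds 4 weeks of acclimation), whose ovaries had been taken out 7 days earlier, so all groups shared the loss of ovarian hormones. Groups differed in a single injection under the skin: 0.1 mg per mouse of dihydrotestosterone (DHT), an androgen that cannot be turned into estrogen, given 1, 3, 6, 12, 18 or 24 h before death, or vehicle alone, given 24 h before death. The design text names a 0.5 h group in place of 18 h, and the array titles were followed; the protocols name 10 mice without saying how many entered each pool. The series title points to ATM signalling after DHT. Every group is 1 array of a pool with no replicate, and the single vehicle pool matches only the 24 h array in time since injection, so at 1 to 18 h DHT cannot be told apart from the injection or the hour of day.

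Signals are linear MAS5 intensities, whose trimmed means lay between 499.6 and 499.9 on the 7 arrays and whose medians lay between 227 and 237. They compare 1 probe set between arrays, not different genes with each other. A floor of 145.9, which 40% of values lay under, replaced lower signals before log2 ratios were formed, so a ratio to a signal at the floor is a lower bound. The ratio of 3 prime to 5 prime signal lay between 0.828 and 0.888 for the Gapdh control and between 1.03 and 1.19 for actin. All 9 measured markers of uterine epithelium, 9 of 10 of stroma and 8 of 8 of smooth muscle lay above the floor on every array, while Vim of the stroma list lay under it throughout, and of 6 ovary and oviduct markers Cyp11a1, Cyp17a1, Inha and Zp3 lay under the floor throughout. The summed smooth muscle signal was 41390 on vehicle, 37609 to 39793 on the arrays of 1 to 6 h and 49148 to 65060 on those of 12 to 24 h. The summed stroma signal was 48602, then 50860.1 to 51905, then 57404 to 74589. In pools of whole tissue, fewer cells of a type and less RNA per cell cannot be told apart.

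Most of the 28 genes lay within 1.5-fold of vehicle at each time, and those past it were more often higher than lower. In order of time, 16, 11, 15, 19, 21 and 13 of the 28 lay above vehicle and 8, 14, 10, 7, 7 and 12 below, the others being at the floor on both arrays. The shares of all genes above vehicle were 48.1%, 45.7%, 46.3%, 48.2%, 45.8% and 48.1%. From 1 to 24 h in order of time, 1, 3, 2, 4, 5 and 3 of the 28 genes were at least 1.5-fold higher than vehicle, with the higher signal at least 1.5 times the floor. The shares of all genes past the same limit were 3.18%, 5.09%, 6.88%, 8.55%, 5.77% and 5.07%. At least 1.5-fold lower were 0, 1, 1, 1, 0 and 0 of the 28, beside 2.69%, 4.82%, 6.23%, 7.02%, 5.42% and 4.92% of all genes. The 18 h array, with Wee1, H2ax, Prkdc, Ercc1 and Parp1, had the most genes on the higher side. H2ax, Chek1, Wee1, Prkdc, Parp1 and Ercc1 were past 1.5-fold at 2 or more times, 6 of 28 beside 17% of all genes. With each gene read by its brightest probe set, Wee1 alone was 2-fold from vehicle at any time, against 7.33% of all genes; a dimmer probe set of Hus1, described below, also passed that limit. The median log2 ratio of the 28 genes was 0.05, -0.04 and 0.11 on the arrays of 1, 3 and 6 h, then 0.25, 0.25 and 0.00, while that of all genes was 0.00 each time.

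**Figure D1:**
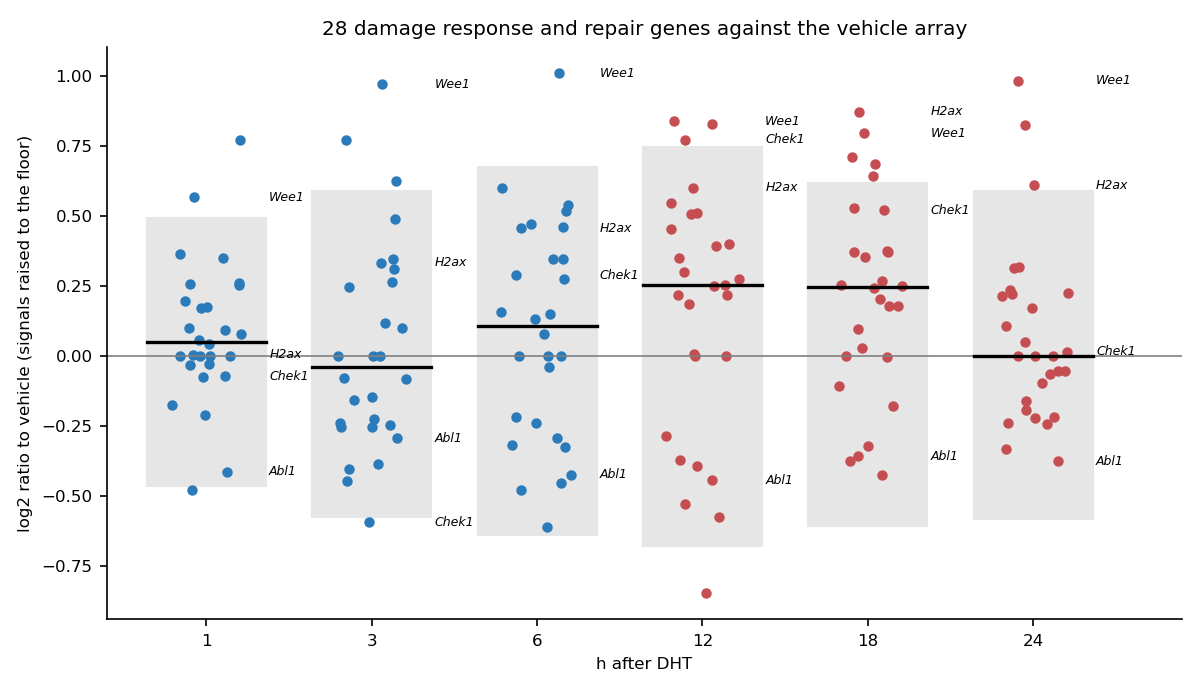
Log2 ratio to the vehicle array (vertical axis, signals raised to the floor) of each of 28 damage response and repair genes at 6 times after DHT (horizontal axis); blue points are 1 to 6 h, red points 12 to 24 h, black bars the median, grey boxes the 5th to 95th percentile of all 6326 genes. The median stands at 0.25 at 12 and 18 h and at 0.00 at 24 h, and Wee1 lies above the grey box at every time.

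For tests, the arrays of 1, 3 and 6 h were joined as early and those of 12, 18 and 24 h as late, and limma compared early, late and vehicle, adjusting over 8421 probe sets with Benjamini-Hochberg. The spread therefore comes from arrays at different times, and the lone vehicle array was assumed to vary like the rest. None of the 28 genes passed at 0.05 in any of the 3 comparisons. Over all probe sets, 0% passed for late against early, 0.273% for early against vehicle and 0.309% for late against vehicle. At an unadjusted p under 0.05 stood 3 of 28 genes higher late than early (5.9% of all genes) and 0 lower (4.9%), 1 higher early than on vehicle (2.7%) and 1 lower (3.41%), and 2 higher late than on vehicle (5.83%) and 1 lower (5.85%). The genes were H2ax, Xrcc5 and Xrcc6 for late against early, Wee1 and Abl1 for early against vehicle, and H2ax, Wee1 and Abl1 for late against vehicle. Both comparisons with vehicle share its 1 array.

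Atm, the kinase that the series title names, had signals of 501 on vehicle and 566, 368, 688, 583, 386 and 581 at 1, 3, 6, 12, 18 and 24 h. It was highest at 6 h and lowest at 3 and 18 h, with vehicle in the middle and with early and late arrays overlapping. The late-minus-early difference was -0.04 ± 0.29 SE on the log2 scale (adjusted p = 0.979 in limma), and early minus vehicle was 0.06 ± 0.41 SE (adjusted p = 1). Without the 6 h array they were 0.15 and -0.14, and the first also turned sign without the 1 h array (0.01) or the 18 h array (0.15).

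Of the complex that recruits Atm, Rad50 and Nbn spanned a narrower range than Atm. Rad50, which tethers the broken ends, lay between 538.5 at 3 h and 779 at 12 h, a 1.45-fold range, with 569.7 on vehicle. Nbn, the subunit that binds Atm, lay between 133 and 185, near the floor. Mre11a, the nuclease, lay at or under the floor on 4 of 7 arrays and reached 176 at 6 h; its probe set is of the type that can read more than 1 transcript. Rad50 and Nbn had their lowest signal on the 3 h array, where Nbn lay under the floor.

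H2ax, the histone variant that Atm phosphorylates beside a break, had signals of 1039 on vehicle and 1041, 1308, 1426, 1574, 1901 and 1586 in order of time. The 1 h array equalled vehicle, every later array was higher, and the late arrays lay above all early ones. At 18 h H2ax was 1.83-fold above vehicle. The late mean exceeded vehicle by 0.69 ± 0.21 SE (1.62-fold; adjusted p = 0.317 in limma, higher on 3 of 3 arrays) and the early mean by 0.43 ± 0.15 SE (1.35-fold; adjusted p = 0.420). The early mean exceeded vehicle by 0.26 ± 0.21 SE (adjusted p = 0.937 in limma). The summed smooth muscle and stroma signals given above were also highest on the late arrays, and their part in this difference was not tested.

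The scaffolds at the break had other time courses. Brca1, which directs breaks into recombination, was under the floor on 5 arrays, at 34.7 to 129, and above it only at 12 h (192) and 18 h (168). Its late mean stood 0.20 ± 0.10 SE above its early mean on the log2 scale (adjusted p = 0.552 in limma), a value set in part by the floor, which replaced the signals of all early arrays and of the 24 h array. Trp53bp1, which favours end joining, ranged from 229 at 24 h to 319.9 at 3 h, with 266.5 on vehicle, and its late mean stood below its early mean, at -0.20 ± 0.13 SE on the log2 scale (adjusted p = 0.674 in limma).

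Of the clamp that reads stalled forks, Rad17, the loader, had signals of 114 on vehicle, 122, 156, 186, 186 and 186 from 1 to 18 h and 117 at 24 h. It was above the floor only from 3 to 18 h. Rad9a was above the floor only at 18 h, at 172.5, and otherwise at 28.8 to 110.4. Hus1, a partner of Rad9a in the clamp, had 3 probe sets that disagreed. The probe set above the floor on all arrays read 223 on vehicle and 160.1 to 197.5 after DHT, lower at all 6 times, and early minus vehicle was -0.29 ± 0.13 SE (adjusted p = 0.835 in limma). A second one read 389 at 1 h and 282 at 24 h but lay under the floor elsewhere, vehicle at 51.5 included, so that 1 h was at least 2.66-fold above vehicle on it. The other lay under the floor on all 7 arrays.

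Wee1, the kinase that restrains entry into mitosis and is also known as a gene under circadian control, lay farthest from vehicle. Its signals were 91.9 on vehicle, under the floor, and 216, 286, 294, 261, 253 and 288 in order of time. All 6 DHT arrays were above vehicle and above the floor, and they overlapped between phases. Against the floor, Wee1 was at least 1.48, 1.96, 2.01, 1.79, 1.74 and 1.98-fold higher in the same order. Early minus vehicle was at least 0.85 ± 0.21 SE on the log2 scale (adjusted p = 0.465 in limma) and late minus vehicle at least 0.87 ± 0.21 SE (adjusted p = 0.227). With the floor at the 20th percentile, where the vehicle signal itself was used, they were 1.52 and 1.54. Both rest on the lone vehicle signal.

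Abl1, a tyrosine kinase that Atm can activate, was lower than vehicle throughout. It read 1531 on vehicle and 1149, 1249, 1140.1, 1125, 1194.5 and 1179 after DHT. All 6 DHT arrays lay between 1125 and 1249, under vehicle, and the early and late arrays overlapped. Early minus vehicle was -0.38 ± 0.10 SE (adjusted p = 0.503 in limma) and late minus vehicle -0.39 ± 0.10 SE (adjusted p = 0.243). Over the 28 genes, each read by its brightest probe set, all 6 DHT arrays lay above vehicle for 4 (13.5% of all genes). These were H2ax, Wee1, Prkdc and Xrcc1. All 6 lay below vehicle for 2, Hus1 and Abl1 (16.3%). H2ax at 1 h (1041) was level with vehicle (1039). The other Xrcc1 probe set was under vehicle at 1, 3 and 18 h, and a second Hus1 probe set was above vehicle at 1 and 24 h.

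Chek1, the kinase downstream of stalled forks, read 220.4 on vehicle and 209.5, 120.5, 269, 376, 316 and 222.5 in order of time. It lay under the floor at 3 h and was highest at 12 and 18 h, with 24 h back at the vehicle level, inside the early range. Late minus early was 0.56 ± 0.29 SE (adjusted p = 0.568 in limma), the largest of the 28 genes. It was 0.33 without the 3 h array, 0.77 without 24 h and 0.02 with the floor at the 60th percentile. Chek2, the kinase downstream of Atm, read 777 on vehicle and 762, 658, 509, 592, 829.7 and 695 in order of time. It was lowest at 6 h, 1.53-fold below vehicle, and highest at 18 h, and its early-minus-vehicle difference was -0.29 ± 0.28 SE (adjusted p = 0.945 in limma), or -0.13 without the 6 h array.

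**Figure D2:**
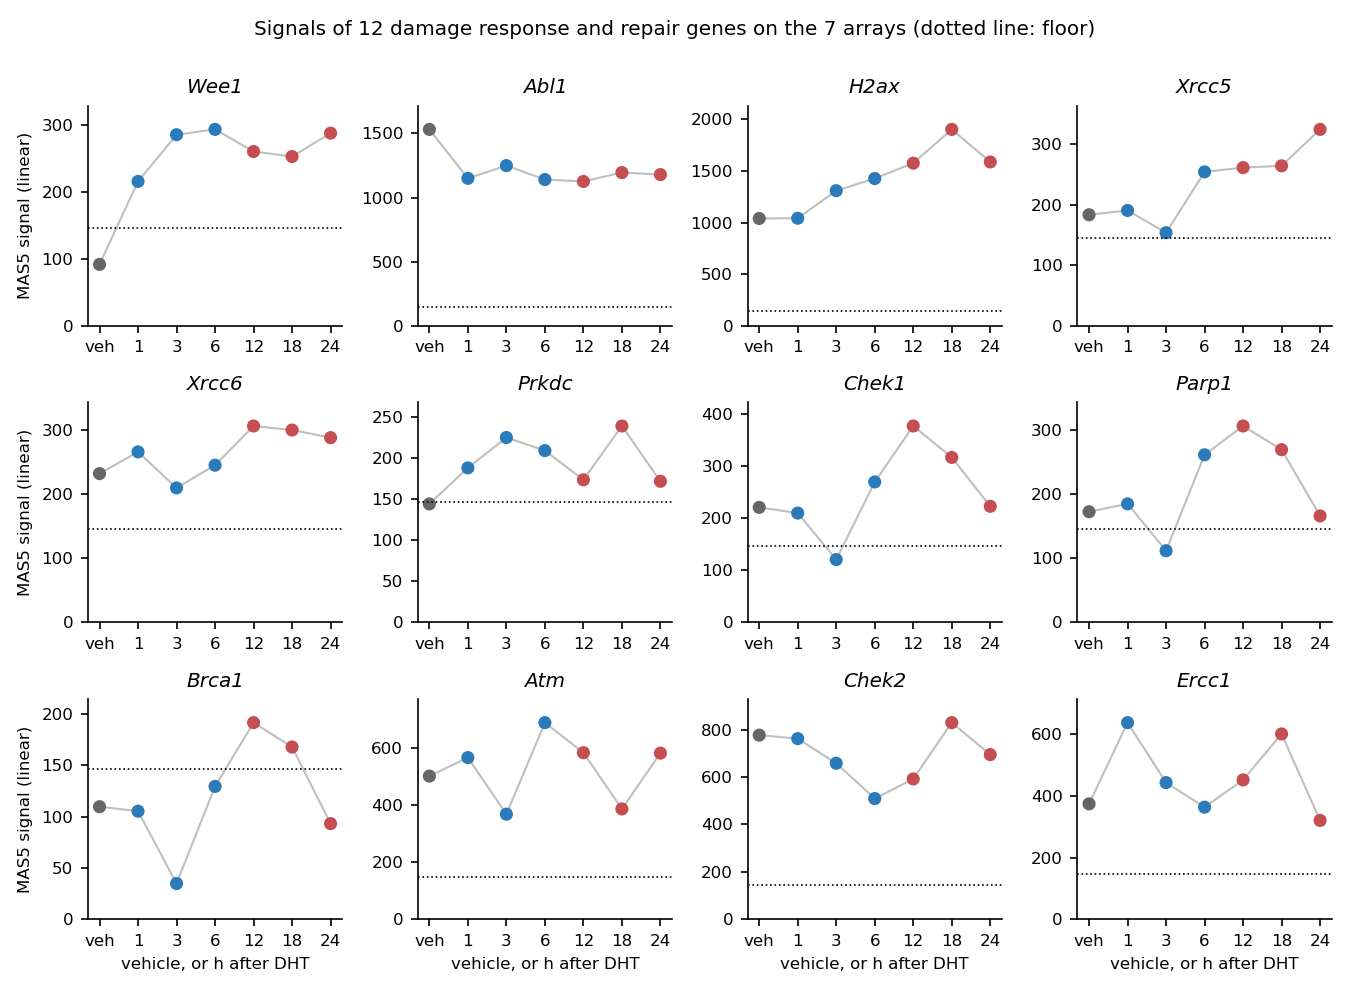
Linear MAS5 signal (vertical axis, from 0) of 12 genes on the vehicle array (grey) and on the DHT arrays of 1 to 6 h (blue) and 12 to 24 h (red), 1 array each; the dotted line is the floor of 145.9. Wee1 lies under the floor on vehicle alone, Abl1 is highest on vehicle, Chek1 and Parp1 lie under the floor at 3 h alone and are highest at 12 h, and Brca1 is above the floor only at 12 and 18 h.

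Of end joining, the route that ligates broken ends directly, the 3 genes of the main list were above vehicle at 6 to 24 h. Polm and Dntt, end joining genes from the second repair list described below, were under vehicle at those times. In order of time their log2 ratios were -0.27, -0.14, -0.11 and -0.07 for Polm and -0.60, -0.78, -0.12 and -0.27 for Dntt. The lowest Dntt value was limited by the floor. At 6, 12, 18 and 24 h taken singly, 46.3%, 48.2%, 45.8% and 48.1% of all genes lay above vehicle. The share of all genes above vehicle at all of those times together was not counted. Xrcc5 (Ku80) and Xrcc6 (Ku70) form the ring that grips a DNA end, and Prkdc encodes the kinase recruited to it. Xrcc5 read 184 on vehicle and 191, 154, 254, 261, 264 and 324.5 in order of time, so its late arrays lay above its early ones by 0.53 ± 0.21 SE on the log2 scale (adjusted p = 0.479 in limma). The 6 h array stood next to the late ones and 24 h was highest, 1.77-fold above vehicle. A second Xrcc5 probe set was under the floor on all arrays. Xrcc6 read 232 on vehicle, 266, 209 and 245 early, and 306, 299.5 and 288 late. Its late arrays also lay above its early ones, by 0.32 ± 0.12 SE (adjusted p = 0.456 in limma). Prkdc read 144 on vehicle, just under the floor, and 188, 225, 209, 173, 239 and 172 after DHT. All 6 DHT arrays were higher, with no order between phases; early minus vehicle was at least 0.50 ± 0.22 SE (adjusted p = 0.814 in limma) and late minus vehicle at least 0.40 ± 0.22 SE (adjusted p = 0.534), or 0.24 without the 18 h array.

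H2ax, Xrcc5 and Xrcc6 were the 3 genes whose late arrays all lay above all early arrays (8.49% of all genes did), and none of the 28 lay the other way (7.27%). With 3 arrays against 3, an exact two-sided permutation p cannot go below 0.1. Without the 24 h array the count was 9, adding Rad50, Brca1, Rad17, Chek1, Brca2 and Parp1. Of these, Brca1 passed the filter through the 12 and 18 h arrays alone. The share of all genes with the 12 and 18 h arrays above the early ones was 13%. Without the 6 h array the count was 5, and the share of all genes was not counted for that setting. The marker sums of smooth muscle and stroma separated the phases in the same way, as did that of endothelium (3384 to 3740 early, 3847 to 4160 late), while that of adipocytes was lower late (2875 to 3757) than early (3876 to 4637). Their part in these counts was not tested.

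The sequence before the start of Xrcc5 and Xrcc6 is shown because these partners were both higher late, with that of Chek2 and Brca2 beside it because they hold the same E2F letters as Xrcc6 while their late and early arrays overlap. RefSeq promoters of build GRCm38.p6 were at hand for 21 of the 28 genes, in 22 entries, and the 250 bases before each start were searched on both strands. Capitals mark the androgen receptor hexamer TGTTCT, or its complement, in Xrcc5 and the E2F site TTTCCCGC, or its complement, in the others.
Xrcc5, chr1:72307321-72307420, plus strand, the 100 bases before the start: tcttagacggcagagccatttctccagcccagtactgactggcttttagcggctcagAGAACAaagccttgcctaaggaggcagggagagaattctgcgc
Xrcc6, chr15:82016269-82016368, plus strand, the 100 bases before the start: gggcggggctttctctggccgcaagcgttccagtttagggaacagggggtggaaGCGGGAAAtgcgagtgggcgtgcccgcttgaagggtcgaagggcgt
Chek2, chr5:110839783-110839882, plus strand, 100 bases that begin 200 before the start: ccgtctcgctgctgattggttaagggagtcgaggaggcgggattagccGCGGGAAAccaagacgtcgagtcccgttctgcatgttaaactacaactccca
Brca2, chr5:150522421-150522520, plus strand, 100 bases that begin 200 before the start: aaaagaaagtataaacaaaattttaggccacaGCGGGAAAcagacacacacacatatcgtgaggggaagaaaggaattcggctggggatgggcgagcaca

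The letters TTTCCCGC stood in 3 of the 22 entries (13.6%), those of Chek2, Brca2 and Xrcc6, and in 0.895% of all 32851 entries of the table. The other E2F form, TTTGGCGC, stood in 0 (0.417% of all). CCAAT, the box that many cell cycle promoters carry, stood in 10 (45.5%, against 33.9%), and the CHR element TTTGAA in 2, Hus1 and Abl1 (9.09%, against 15.99%). The hexamer TGTTCT stood in 2, Xrcc5 and Xpa (9.09%, against 16.1%), and the whole androgen response element, AGAACA and TGTTCT with 3 bases of any kind between, in 0 (0.00913% of all). These are matches of letters in a window, not measured sites.

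The recombination genes Brca2 and Rad52 were past 1.5-fold at no time. Brca2, which loads the recombinase, read 325 on vehicle, 233, 249 and 260.5 early, and 326, 301 and 258 late. It was lower than vehicle on the early arrays, with a log2 difference of -0.39 ± 0.18 SE (adjusted p = 0.824 in limma), and the 24 h array lay within the early range. Rad52, which anneals single strands, stayed between 428 and 505 except at 12 h (338.5). A second Rad52 probe set was under the floor throughout.

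Among genes that repair damaged bases and nicks, Parp1, the sensor of single-strand breaks, was like Chek1 lowest at 3 h and highest at 12 h. It read 173 on vehicle, 185, 112, 262, 307, 270.0 and 166.5 in order of time, under the floor at 3 h and at least 1.5-fold above vehicle at 6, 12 and 18 h. Late minus early was 0.32 ± 0.31 SE (adjusted p = 0.757 in limma), and its probe set is of the type shared with related sequences. The difference was 0.12 without the 3 h array and 0.14 without 12 h, but 0.54 without 6 h and 0.58 without 24 h or with 6 h counted as late. Xrcc1, the scaffold that Parp1 brings in, read 341 on vehicle and 582 at 3 h, against 353 to 406.5 at the other times. Its other probe set gave 229 on vehicle and 59.2 and 92.1, under the floor, at 1 and 3 h, so the 3 h peak was not seen on it. Apex1, the nuclease that cuts at sites that lost their base, read 790.2 on vehicle, 772 at 1 h and 924 to 1147 from 3 h on. Ogg1, which removes oxidised guanine, was 234 at 12 h, against 421 on vehicle and 307 to 475 at other times. Ung, which removes uracil, had its highest signal at 3 h (1589.5) on one probe set and at 12 h (696) on another.

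Ercc1, part of the nuclease that cuts 5 prime of bulky lesions, read 374 on vehicle, 638, 443, 363.5, 452, 601 and 320.4 in order of time. It was 1.71-fold above vehicle at 1 h and 1.61-fold at 18 h with lower values between, and early minus vehicle was 0.32 ± 0.44 SE (adjusted p = 0.945 in limma), or 0.10 without the 1 h array and 0.51 without 6 h. Xpc, which finds the lesion, lay below vehicle (380.5) at 5 of 6 times, down to 264 at 12 h. Xpa, which verifies it, lay between 118 and 186, near the floor, with 143 on vehicle. Msh6, a mismatch sensor, ranged from 147 at 18 h to 267 at 12 h, with 183 on vehicle.

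**Figure D3:**
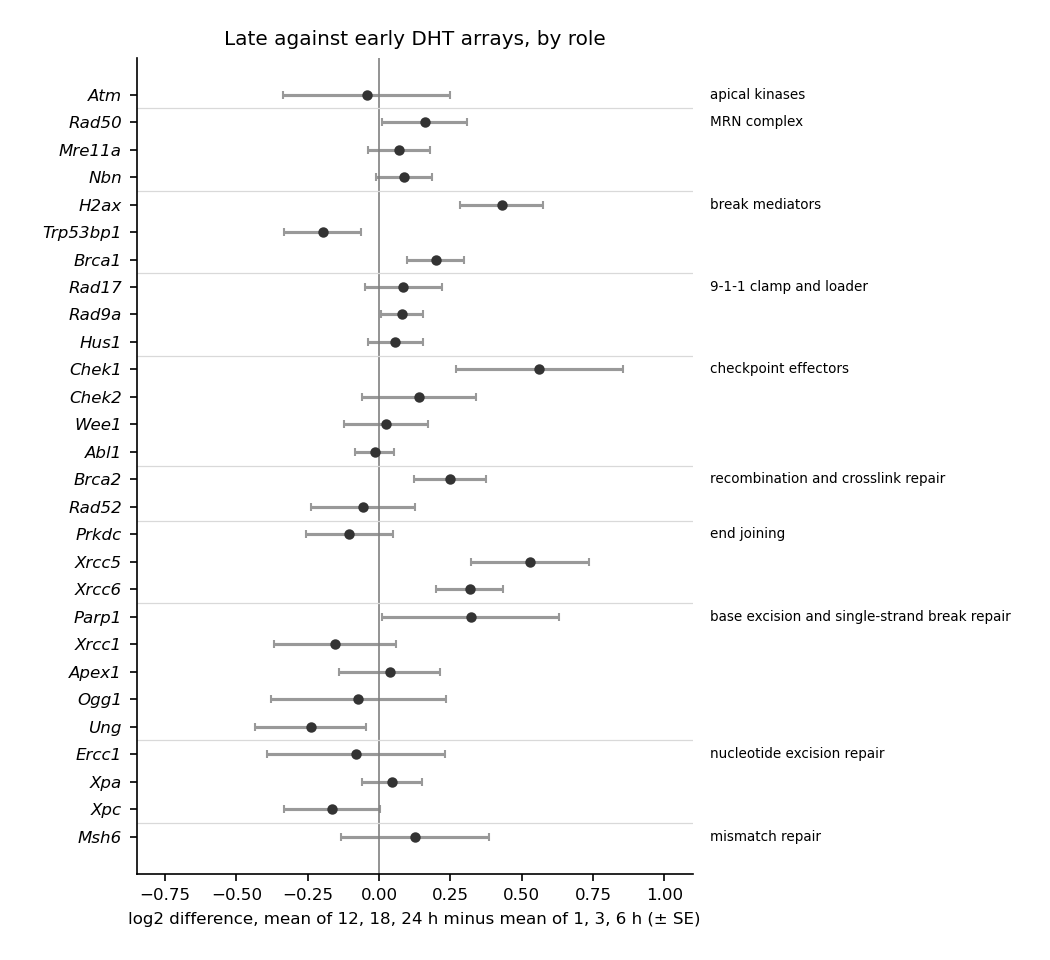
Log2 difference between the mean of the 3 late and the mean of the 3 early DHT arrays (horizontal axis) for 28 genes grouped by role (vertical axis); bars are the standard error from limma. Chek1 (0.56), Xrcc5 (0.53) and H2ax (0.43) lie farthest to the right, Ung (-0.24) and Trp53bp1 (-0.20) farthest to the left, and none passed after adjustment.

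Across the 28 genes, 7 had their highest signal on the 12 h array and 7 on the 18 h array, 50.0% in all, against 27.0% of all genes. Among them, Rad9a was above the floor only at 18 h and Brca1 only at 12 and 18 h. Both passed the filter through those arrays alone, so the filter fixed where they were highest. The same filter applied to all genes. On the 3 h array, which counts as early, 9 of the 28 had their lowest signal (32.1%, against 17.5% of all genes). The late-minus-early difference was above 0 for 18 of 28 genes with a median of 0.06, beside 48.4% and 0.00 for all genes. With the floor at the 60th percentile this median was -0.02, taken over fewer of the 28 genes because some did not pass it. The late-minus-vehicle median was 0.19 with 19 of 28 above 0, beside 49.0% and 0.00 for all genes. Over the genes that passed the higher floor it was 0.0094. The early-minus-vehicle median was 0.08 with 17 of 28 above 0, beside 49.4% and 0.00 for all genes. It was 0.00059 without the 6 h array, 0.02 without 1 h and 0.14 without 3 h.

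Genes of DNA replication and of mitosis, measured on the same arrays, had higher medians than the 28 genes at 12 h. The 29 replication genes had median log2 ratios of 0.40, 0.26 and 0.00 on the arrays of 12, 18 and 24 h, with 26 of 29 highest at 12 or 18 h. The 32 mitosis genes had 0.58, 0.94 and 0.72, with 24 of 32 highest at 18 h. At 24 h the median was 0.00 for the repair genes, for the replication genes and for all genes. No test of a difference between the lists was made.

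**Figure D4:**
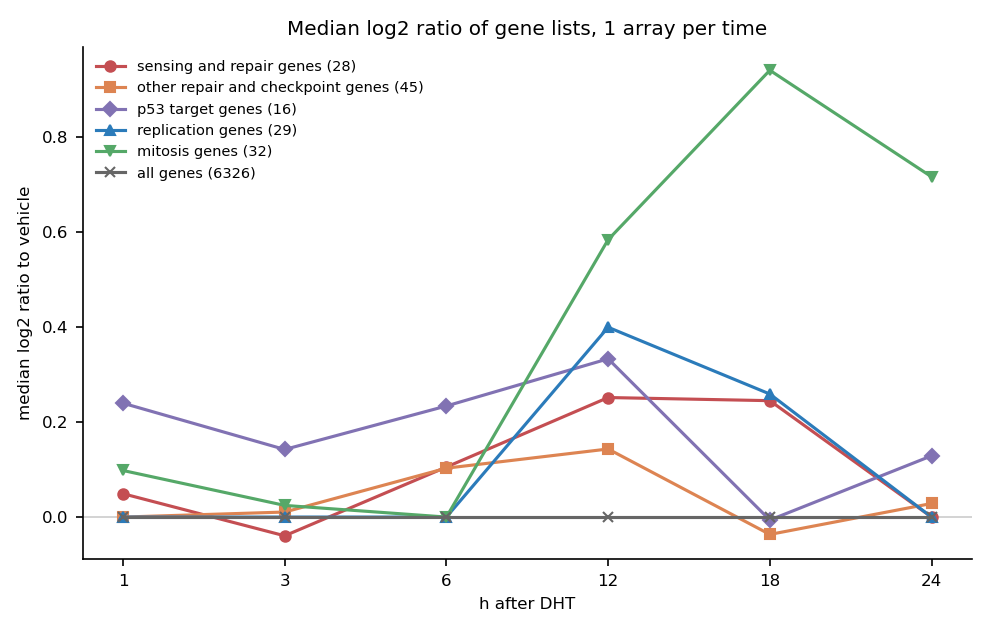
Median log2 ratio to vehicle (vertical axis) of the 28 sensing and repair genes, 4 other gene groups and all genes at 6 times after DHT (horizontal axis), 1 array per time; numbers of genes stand in the key. The sensing and repair genes peak at 0.25 at 12 h, below the replication genes (0.40), and are at 0.00 at 24 h, where the mitosis genes are at 0.72.

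The 24 h array is the one whose vehicle pool was taken at the same time after injection. There 13 of 28 genes lay above vehicle and 12 below, with 48.1% of all genes above. Wee1 (at least 0.98 on the log2 scale), Xrcc5 (0.82) and H2ax (0.61) were the genes at least 1.5-fold higher, followed by Xpa (0.32, a lower bound) and Xrcc6 (0.31). Abl1 (-0.38) and Brca2 (-0.33) were lowest. These are values of 1 array against 1, with no error.

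Another 45 measured genes of repair and checkpoints, from a list of 91, gave a median late-minus-early difference of 0.02. Of them, 25 lay above 0 and 20 below, beside 48.4% of all genes above 0. At an unadjusted p under 0.05, 3 were higher (5.9% of all genes) and 3 lower (4.9%), and 0 passed after adjustment in limma. The highest were Cdc25c, the phosphatase that opposes Wee1, at 0.81 ± 0.21 SE (adjusted p = 0.327), Rpa3, a subunit of the single-strand binding protein, at 0.51, Mpg, which removes alkylated bases, at 0.38, and Topbp1, which activates Atr, at 0.32. The lowest were Fancc of the crosslink pathway at -1.42 ± 0.40 SE (adjusted p = 0.349), Rad51d at -0.46, Ube2b at -0.45 and Gtf2h1 at -0.37. Fancc was 1.02, 0.64 and 0.92 above vehicle on the log2 scale at 1, 3 and 6 h, 1.08 and 0.93 below it at 12 and 18 h, and 0.34 above it at 24 h.

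Trp53 itself was not measured. Of 2 probe sets named for its pseudogene Trp53-ps, looked up after the values were seen, 1 read 136.5 to 203 and the other 460.1 to 665, with 152 and 665 on vehicle; such copies share sequence, so they cannot be read as Trp53. Of 30 p53 target genes 16 were measured. Their median late-minus-early difference was -0.03, with 8 above 0 (48.4% of all genes) and 8 below. The highest were Ckap2, a spindle protein, at 0.89 ± 0.17 SE (adjusted p = 0.221 in limma) and Ccng1 at 0.50, and the lowest Plk2 at -1.35 ± 0.77 SE (adjusted p = 0.601 in limma) and Gadd45a at -0.97. In order of time, 14, 9, 9, 10, 8 and 10 of the 16 lay above vehicle, with medians of 0.24, 0.14, 0.23, 0.33, -0.01 and 0.13, beside the shares of all genes above vehicle given earlier (48.1% at 1 h and 45.7% at 3 h). Gadd45g, the other gene of the series title, was 2.87 above vehicle at 3 h on the log2 scale, when Atm was 0.45 below it. Atm was 0.18 above vehicle at 1 h and 0.46 above it at 6 h. These are transcript levels, and ATM signalling was not measured.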

How the data were processed

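Pooled uterine RNA was hybridised to Affymetrix arrays. The deposited values are linear signal intensities; the submitters' processing notes name MAS5 as the authors' tool, without a version. Detection calls were not used here. Of 12488 probe sets, 66 controls were left out. Symbols came from the platform annotation: 10833 probe sets named 1 gene, 396 several and 1193 none.

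Signals were raised to the floor (145.9) and log2 was taken; the 8421 probe sets above the floor on at least 1 array were tested. Of several probe sets for a gene, the brightest stood for it. Of the 35 probe sets described, 31 passed; a gene such as Rad9a passed through 1 array.

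Phases were compared with limma 3.58.1 in R 4.3.3, with a variance trend and 4 residual degrees of freedom, checked on simulated data. Whether pools were independent animals is not stated, so p-values measure the spread between arrays. Genes given on all arrays were Atm, Chek1 and Chek2, chosen by name, and those past a limit. The limits were 1.5-fold at 2 times, 2-fold at 1 time, an unadjusted p of 0.05 in limma, or a separation of phases by 0.3. Brca2 and Rad17, past none of them, were also given on all arrays. Hus1 and Xrcc1, past a limit on a dimmer probe set only, were given in part. From the lists of other repair genes and p53 targets the 4 or 2 highest and lowest were named. Members and lists were chosen with earlier results of these data known.

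Alternatives changed floor, pseudocount (16), scaling, filter, probe set choice, trend, the phase of the 6 h array, and left out each array.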

Additional observations from a re-analysis of the deposited data

How the results depend on the processing

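For the single-gene differences that were recomputed, the lowest adjusted p in limma under any alternative was 0.112, and signs held except for Atm. At the 60th percentile floor, the probe sets standing for Wee1, Xrcc5, Xrcc6, Parp1, Prkdc, Brca2 and Hus1 did not pass the filter. Their differences were not recomputed at that floor. The late-minus-early difference of Atm turned to 0.26 with the 6 h array counted as late. It was 0.01 without 1 h, 0.15 without 6 h and 0.15 without 18 h. The early-minus-vehicle difference of Atm turned to -0.14 with 6 h counted as late or left out. Leaving out 1 array gave -0.30 to 0.15 and -0.14 to 0.32 for them. The log2(signal + 16) scale called 10 probe sets for late against early, and counting 6 h as late called 3. For early and late against vehicle that scale called 2 and 2, quantile normalization 14 and 15, no filter 121 and 137, and no variance trend 0 and 0; the 60th percentile floor called 42 for late against vehicle. Leaving out 1 array gave 0 to 1 calls for late against early, 8 (without 6 h) to 55 (without 3 h) for early against vehicle, where 12 h or 18 h left 11 or 12, and 0 (without 12 h or 18 h) to 73 (without 3 h) for late against vehicle, where 6 h left 10, 3 to 9 of the 28 genes with late above early arrays and 0 to 1 below. Counting 6 h as late gave 1 below. At the 60th percentile floor, fewer of the 28 genes passed the filter. Among those that did, the late-minus-vehicle median was 0.0094 and 1 gene had its late arrays above the early ones. The 1.5-fold counts from 3 to 24 h were then 1, 1, 1, 2 and 1, and 0 genes were past 2-fold. With the floor at the 20th percentile, the 1.5-fold counts from 1 to 18 h were 2, 7, 5, 8 and 8, and 3 were past 2-fold. The mean of a gene's probe sets gave 2 at 1 h. Shares of all genes were not recounted for these counts of the 28 genes, except the one given above for leaving out 24 h. The cause of these changes was not tested. No paired analysis was possible because each group has 1 array. Signals near the floor limit Brca1, Mre11a, Nbn, Rad17, Rad9a and Xpa.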
